A study of Mus musculus with 21 samples.

Results

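Macrophage genes were followed in the apex of regenerating neonatal mouse hearts: 35 genes of the 18762 in the deposited table, taken by symbol from a list of 6 genes of resident tissue macrophages and 29 genes of recruited monocytes and of myeloid cells in general. Macrophages enter the heart before birth and renew there as resident cells, marked in mouse heart by Lyve1, Timd4 and Folr2, while after injury Ccr2-bearing monocytes come in from the blood. Both kinds depend on the growth factor receptor Csf1r, both clear dead cells and debris, and in the neonatal mouse heart macrophages are needed for regrowth of muscle and vessels after injury. The list mixes surface receptors, complement chains, lysosomal enzymes and 1 transcription factor, and some of its genes are shared by all leukocytes. In bulk tissue, fewer macrophages and less of these transcripts per macrophage cannot be told apart.

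RNA came from the heart apex of ICR mice at postnatal day 7, and the tip of the ventricle had been cut away (apical resection) at day 1 in all 7 groups. The drug groups received subcutaneous injections over 7 consecutive days of isoproterenol, which activates β-adrenergic receptors, or of 1 of 5 anti-arrhythmic drugs. These were amiodarone, a blocker of several ion channels, metoprolol and propranolol, which block β-adrenergic receptors, lidocaine, which blocks sodium channels, and ivabradine, an inhibitor of the pacemaker current. The control group, titled NS, is labelled with the resection alone, and no injection is stated for it. Each group had 3 libraries, 21 in all. Neither doses nor the number of animals behind a group are given, so p-values measure the spread between libraries. Y-linked transcripts, summed over 4 genes, reached 1 FPKM in 1 of 3 metoprolol libraries and in 2 of 3 lidocaine, ivabradine and control libraries. These groups thus held RNA of more than 1 animal. In the other groups the Y-linked sums do not show this, and whether their libraries are separate animals is not known. Single libraries there differed in markers of other tissues. Atrial Myl7 was at 1.27, 2.59 and 176 FPKM with isoproterenol, lung Sftpc at 0.07, 222 and 0 FPKM with amiodarone, and liver Alb at 10.8, 0.24 and 0.03 FPKM with propranolol. The Y-linked sum reached 1 FPKM in 0 of 3 isoproterenol libraries and in all 3 with amiodarone and with propranolol. Sex was thus unbalanced between groups and cannot be fully told apart from the drug. The design asks which transcripts of the healing apex differ with each drug.

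The values are FPKM, fragments per length of transcript and per total mapped, so levels of different genes can be set side by side. Their sum ran from 496304 to 552905 per library with 16348 to 16746 genes above 0, and only relative depth (0.967 to 1.059) could be read from the values. Tests were run with limma on log2(FPKM + 1) for the 12433 genes that reached 1 FPKM in 3 or more libraries, and fold changes are on that scale, which understates those of low genes. Adjusted p is Benjamini-Hochberg over all genes tested, with 0.05 as the threshold, and FPKM values are mean ± SD of 3 libraries where not given per library. Markers of 4 other tissues had their highest values in 4 libraries. These were skeletal muscle Mylpf in control 3 (62.7 FPKM), atrial Myl7 in isoproterenol 3 (176 FPKM), lung Sftpc in amiodarone 2 (222 FPKM) and liver Alb in propranolol 1 (10.8 FPKM). Lower amounts were present elsewhere, such as Mylpf in amiodarone 3 (30.4 FPKM) and control 2 (14.7 FPKM) and Sftpc in lidocaine 1 (9.1 FPKM). Leaving out the 4 libraries thus does not remove all transcripts of these tissues. Of markers of macrophages of those organs, Siglecf and Marco of lung were at 0.09 and 0.73 FPKM in amiodarone 2, and Clec4f of liver was at 0.05 FPKM in propranolol 1 and at 0 in the other 20 libraries.

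With every drug a part of the macrophage genes fell and 0 rose. Of the 31 members tested (Timd4, Cd163, Ccr2 and Cd86 were too low), 27 fell with isoproterenol, 9 with amiodarone, 14 with metoprolol, 20 with propranolol, 16 with lidocaine and 12 with ivabradine (adjusted p under 0.05, limma). Over all genes tested the shares that fell were 25.8%, 20.6%, 22%, 19.8%, 26.6% and 19.1% in the same order of drugs, and the shares that rose were 8.38%, 8.47%, 9.48%, 6.98%, 10.6% and 7.91%. The median change of the members tested was log2 -1.22 with isoproterenol, -0.63 with amiodarone, -0.62 with metoprolol, -0.84 with propranolol, -0.79 with lidocaine and -0.61 with ivabradine, beside -0.095 to -0.075 over all genes. The 6 comparisons share the 3 control libraries and are not independent. With isoproterenol, all 3 drug libraries lay below all 3 controls in 26 of 31 members, where 32.8% of all genes tested did. The same held for 7 members with amiodarone (30.6% of all genes), 7 with metoprolol (31.8%), 21 with propranolol (31.2%), 13 with lidocaine (33.3%) and 13 with ivabradine (25.8%). For amiodarone and metoprolol, 7 of 31 is below the share of all genes. The 9 of 31 members that fell with amiodarone are not far above the 20.6% of all genes.

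Those counts moved with single libraries and with the 4 libraries highest in markers of other tissues. Without these 4 the members that fell numbered 13 with isoproterenol, 0 with amiodarone, 9 with metoprolol, 4 with propranolol, 9 with lidocaine and 8 with ivabradine. Over all genes, 1396, 740, 1906, 1011, 2451 and 1552 then fell in the same order of drugs. With all libraries 3212, 2555, 2731, 2464, 3303 and 2374 genes fell. The number of genes tested without the 4 is not given here, so these are counts and not shares. Control 1 had the lowest value of the control group in 31 of the 35 members. Without control 1 the count was 22 with amiodarone, 26 with lidocaine and 20 with ivabradine. Without control 2 it was 0 with amiodarone, 7 with metoprolol, 8 with propranolol, 6 with lidocaine and 4 with ivabradine, and without control 3 it was 4 with amiodarone, 11 with propranolol and 10 with lidocaine. Leaving out a drug library gave 1 (amiodarone 1) and 2 (amiodarone 2), 7 (metoprolol 1) and 7 (metoprolol 2), 8, 11 and 13 (propranolol 1, 2 and 3), and 6 (lidocaine 2). Over all genes, with 1 library left out, 2044 to 3386 fell with isoproterenol, 1398 to 2742 with amiodarone and 1625 to 2939 with metoprolol. The ranges were 1493 to 2703 with propranolol, 2238 to 3467 with lidocaine and 1609 to 2531 with ivabradine. After rescaling by median of ratios the counts were 26, 3, 10, 12, 13 and 9 in the order of drugs above, while over all genes 8.31% to 12.8% fell and 14.5% to 18.9% rose.

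Members differed in how many drugs they fell with. Those that fell with all 6 drugs were C1qa, C1qb, C1qc, Fcgr1, Fcer1g, Laptm5, Ptprc and Ms4a7, 8 in all. The share of all genes tested that fell with all 6 was not counted, and the comparisons share the control libraries. Whether falling with several drugs is more common among members than among all genes is therefore not known. Another 5 fell with 5 drugs: Csf1r, Cx3cr1, Adgre1 and Aif1, which did not pass with amiodarone, and Spi1, which did not pass with ivabradine. Tyrobp, Cybb, Cd53 and Pf4 fell with 3 drugs and Fcgr3, Cd14 and Lgmn with 2. Folr2, Mrc1, Lyz2, Ctss, Mpeg1, Itgam and Itgb2 fell with isoproterenol and passed with no other drug, and Lyve1, F13a1, Trem2 and Cd68 passed with none. Calls held under every alternative setting that tested the gene for 13 members with isoproterenol, 7 with metoprolol, 6 with lidocaine, 4 with propranolol, 4 with ivabradine and 0 with amiodarone. Fcgr1 was among these for 5 drugs, all but amiodarone.

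**Figure D1:**
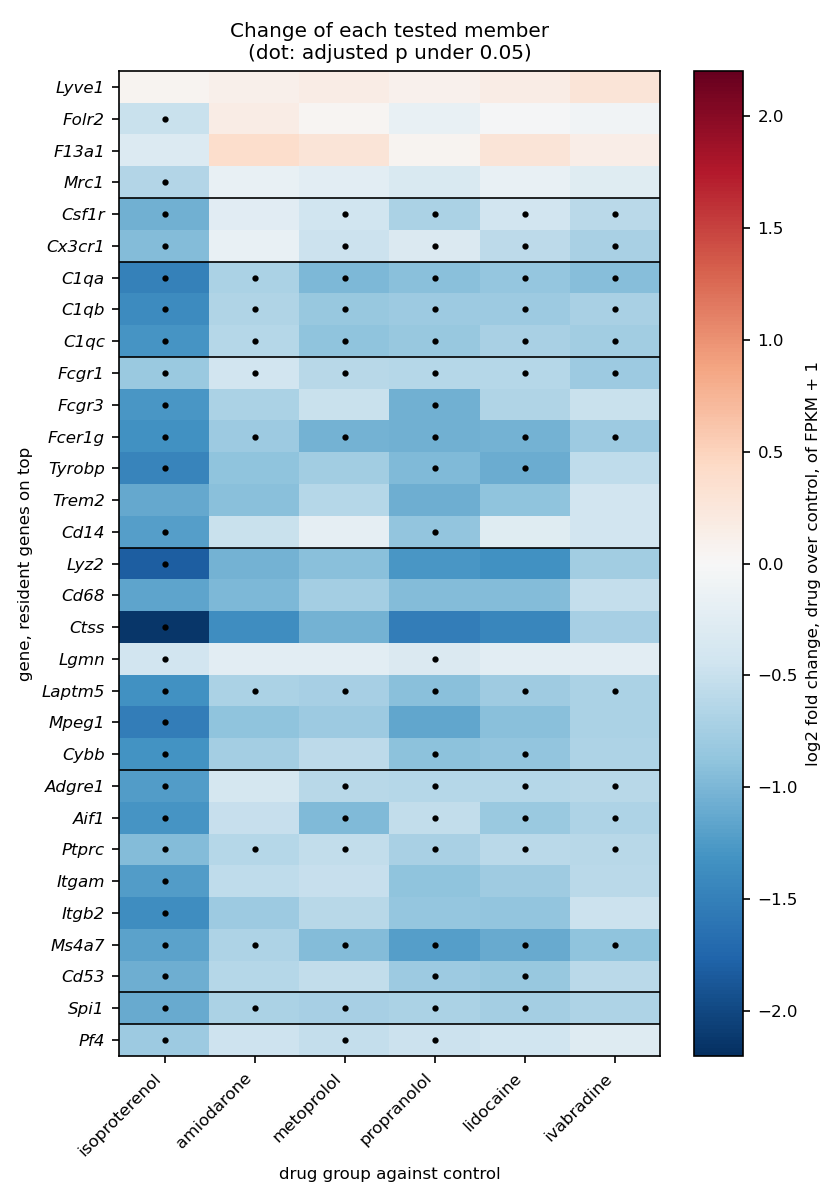
Log2 fold change of FPKM + 1, drug over control, for the 31 members tested (down the page, resident genes on top, lines between role classes) in the 6 drug groups (across). Blue is lower with the drug, dots mark adjusted p under 0.05, and the isoproterenol column holds 27 dots against 9 to 20 in the others.

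Resident genes fell with isoproterenol in 2 of the 4 tested and with none of the other drugs, where 25.8% of all genes tested fell with isoproterenol and 19.1% to 26.6% with the others. The medians of the resident genes tested were log2 -0.40 with isoproterenol and -0.05 to 0.13 with the other drugs. Of the 27 other members tested, 25 fell with isoproterenol and 9 to 20 with the other drugs. The difference between the resident genes and the others was not tested. Mrc1, the mannose receptor CD206, stood at 2.84, 2.72 and 2.5 FPKM with isoproterenol, 3.6, 4.86 and 4.08 FPKM with amiodarone, and 3.85, 3.42 and 4.55 FPKM with metoprolol. Its values were 3.11, 3.9 and 3.72 FPKM with propranolol, 4.89, 3.54 and 3.99 FPKM with lidocaine, 3.81, 4.15 and 3.48 FPKM with ivabradine, and 3.8, 6.87 and 4.03 FPKM in control. All isoproterenol libraries lay below all controls and below all 15 anti-arrhythmic libraries, and Mrc1 fell with isoproterenol at log2 -0.64 ± 0.15 (adjusted p = 0.0035). With the other drugs its change was -0.33 to -0.16 (adjusted p 0.1 to 0.44).

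Folr2, the folate receptor β, was measured at 2.48, 2.74 and 2.34 FPKM with isoproterenol, 4.08, 4.34 and 5.3 FPKM with amiodarone, and 3.33, 4.62 and 4.46 FPKM with metoprolol. The remaining groups had 3.05, 2.83 and 4.52 FPKM with propranolol, 3.91, 4.22 and 3.48 FPKM with lidocaine, 4.76, 3.11 and 3.47 FPKM with ivabradine, and 3.43, 5.42 and 3.3 FPKM in control. Folr2 fell with isoproterenol at log2 -0.50 ± 0.16 (adjusted p = 0.024), with every isoproterenol library below every control. This call did not pass after rescaling, with a covariate of Y-linked genes, without the 4 libraries, or without isoproterenol 1, isoproterenol 3 or control 2, where its change was -0.31 to -0.56. All other drug groups overlapped the controls, with changes of -0.17 to 0.16, none of which passed.

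Lyve1, the hyaluronan receptor of resident macrophages and of lymphatic endothelium, overlapped with control in every drug group. It stood at 2.64, 2.79 and 2.26 FPKM with isoproterenol, 2.36, 3.09 and 2.55 FPKM with amiodarone, and 2.89, 1.69 and 4.22 FPKM with metoprolol. The other groups had 2.58, 2.37 and 3.01 FPKM with propranolol, 4.13, 2.26 and 2.3 FPKM with lidocaine, 3.05, 3.77 and 2.66 FPKM with ivabradine, and 1.87, 2.75 and 2.63 FPKM in control. Its changes were 0.07 to 0.29 against control, and an F test over the 7 groups gave an adjusted p of 0.87. Of 7 lymphatic endothelial markers tested (9 listed), 1 fell and 1 rose with isoproterenol, and the list summed to 61.6 to 75.8 FPKM with isoproterenol and 57.7 to 110.2 FPKM in control. F13a1, the A chain of clotting factor XIII, had its lowest group mean with isoproterenol. It stood at 1.59, 2.74 and 2.2 FPKM with isoproterenol, 3.53, 4.8 and 3.99 FPKM with amiodarone, and 4.31, 3.09 and 3.75 FPKM with metoprolol. Further values of F13a1 were 2.82, 2.75 and 3.68 FPKM with propranolol, 4.47, 3.61 and 3.22 FPKM with lidocaine, 3.88, 2.7 and 3.38 FPKM with ivabradine, and 1.89, 4.64 and 2.57 FPKM in control. F13a1 passed with no drug, with control 2 above control 1 and 3, its change being -0.30 with isoproterenol and 0.07 to 0.39 with the others. Without control 2 it was higher with amiodarone (0.66, adjusted p = 0.016), metoprolol (0.55, adjusted p = 0.033) and lidocaine (0.56, adjusted p = 0.022).

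Timd4 and Cd163 were too low for the main test. Timd4, a receptor for phosphatidylserine on dying cells, stood at 0.05, 0.28 and 0.33 FPKM with isoproterenol, 0.61, 0.49 and 1.22 FPKM with amiodarone, and 0.33, 0.28 and 0.29 FPKM with metoprolol. Its values elsewhere were 0.38, 0.28 and 0.96 FPKM with propranolol, 0.51, 0.38 and 0.55 FPKM with lidocaine, 0.5, 0.34 and 0.44 FPKM with ivabradine, and 0.57, 0.4 and 0.34 FPKM in control, and it passed with no drug when genes were not filtered. The haemoglobin scavenger receptor Cd163 had 0.34, 0.38 and 0.25 FPKM with isoproterenol, 0.55, 0.71 and 0.73 FPKM with amiodarone, and 0.56, 0.44 and 0.57 FPKM with metoprolol. For Cd163 the remaining values were 0.58, 0.55 and 0.81 FPKM with propranolol, 0.68, 0.58 and 0.87 FPKM with lidocaine, 0.88, 0.48 and 0.64 FPKM with ivabradine, and 0.45, 0.61 and 0.46 FPKM in control. Without a filter, Cd163 changed by -0.19 with isoproterenol against control (adjusted p = 0.13) and fell against the mean of the 5 anti-arrhythmic groups (-0.31, adjusted p = 0.0054). Of the 6 resident genes, 5 had their lowest group mean with isoproterenol, the exception being Lyve1, whose lowest mean was in control. The 5 include Timd4 and Cd163, which were too low for the main test. The share of all genes lowest with isoproterenol was not counted, so this is not read as a result about resident genes.

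**Figure D2:**
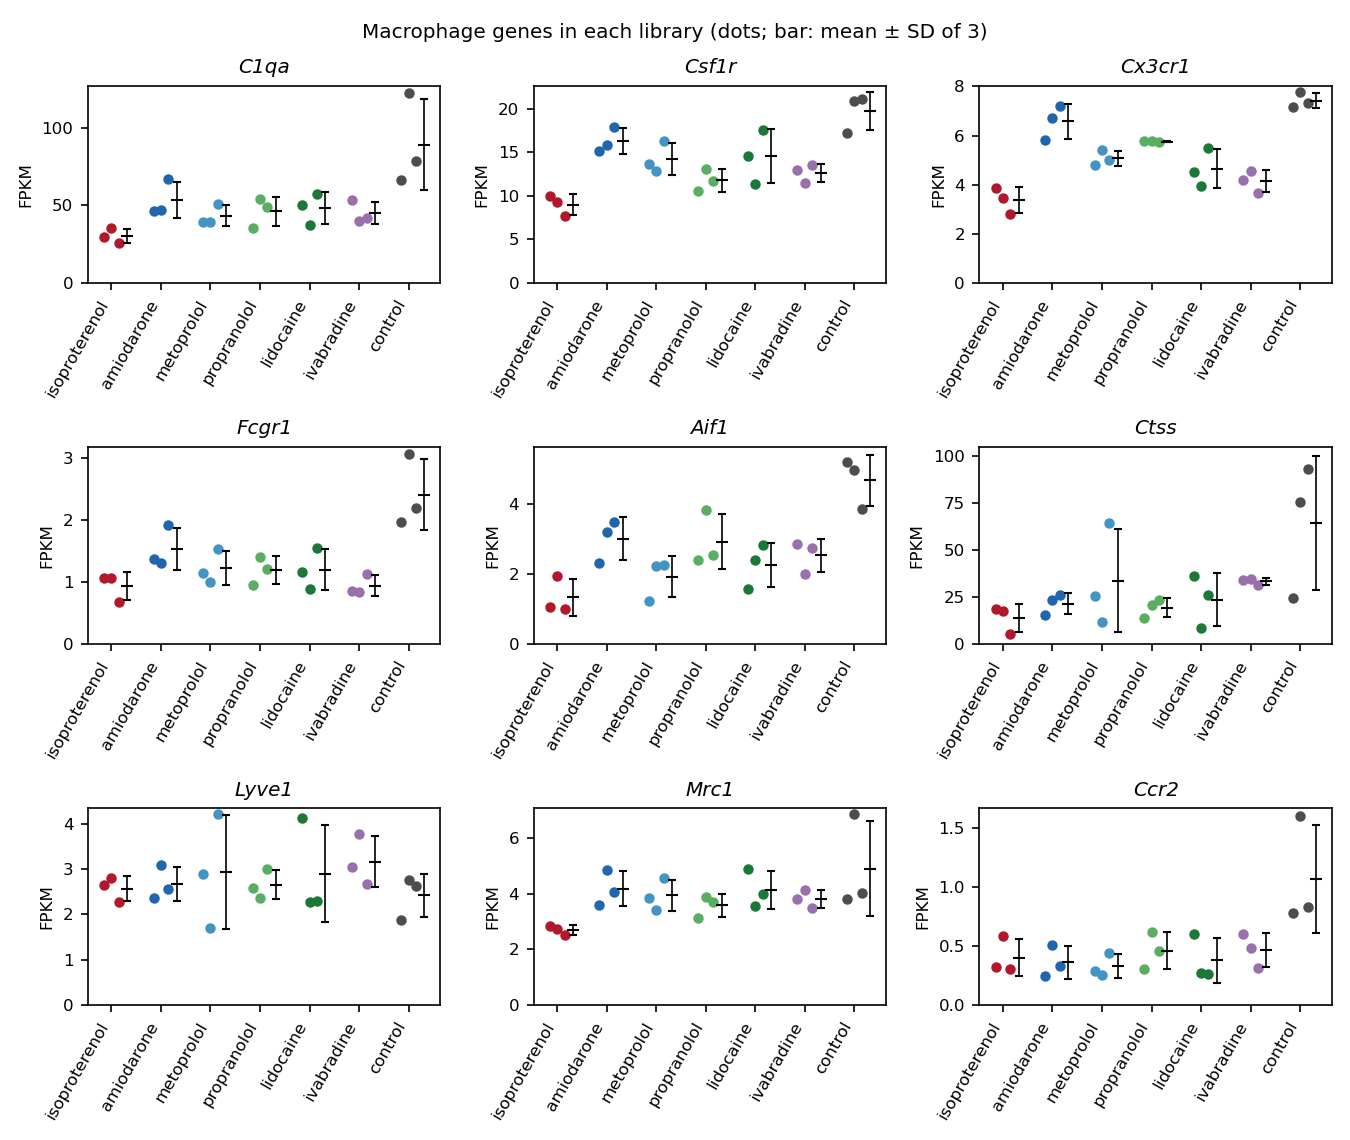
FPKM in each of the 21 libraries (dots) with mean ± SD of 3 (bars) for 9 members, drug groups left and control right. C1qa, Csf1r, Fcgr1 and Aif1 are highest in control and lowest or among the lowest with isoproterenol, Lyve1 overlaps in all groups, and Ctss spreads from 24.4 to 93.0 FPKM within the controls.

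Ccr2, the receptor through which monocytes follow Ccl2 out of the blood, was below 1 FPKM in all drug libraries. It stood at 0.32, 0.58 and 0.3 FPKM with isoproterenol, 0.24, 0.51 and 0.33 FPKM with amiodarone, and 0.29, 0.25 and 0.44 FPKM with metoprolol. Further, it had 0.3, 0.62 and 0.46 FPKM with propranolol, 0.6, 0.27 and 0.26 FPKM with lidocaine, 0.6, 0.48 and 0.31 FPKM with ivabradine, and 0.78, 1.6 and 0.83 FPKM in control. Each of the 18 drug libraries lay below all 3 controls. Ccr2 did not reach 1 FPKM in 3 libraries and so was left out of the main test. With no filter it fell with every drug, at log2 -0.48 to -0.62 (adjusted p 0.0067 to 0.026). These are values near the lower end of the table, and read counts behind them are unknown. Isoproterenol differed from the mean of the anti-arrhythmic groups by 0.00 ± 0.11 in Ccr2 (adjusted p = 1).

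Other genes of classical monocytes gave mixed counts. Of 12 listed, 8 were tested. With isoproterenol 5 fell and 1 rose, and with the other drugs 2 to 4 fell and 1 rose in each. Over all genes tested, 25.8% fell with isoproterenol and 19.1% to 26.6% with the other drugs, and 6.98% to 10.6% rose. Some of the counts here lie near those shares. Lst1, a leukocyte transcript, fell with all 6 drugs (-0.91 with isoproterenol, adjusted p = 0.0017), as did the inhibitory receptor Cd300a (-0.72, adjusted p = 0.0043). Vcan, the matrix proteoglycan versican, fell with isoproterenol (-0.68, adjusted p = 0.0033) and with no other drug. Emilin2, a matrix glycoprotein that other cells also make, was the gene that rose, by up to 0.69 with ivabradine. Among macrophage growth factors and monocyte attractants, 17 listed and 10 tested, 6 fell with isoproterenol and 3 to 4 with each other drug, and 0 rose with any. Csf1, the growth factor read by Csf1r, fell with all 6 drugs, at log2 -0.46 with isoproterenol and most with lidocaine (-0.79, adjusted p = 3.5e-05). It stood at 10.02, 10.97 and 10.0 FPKM with isoproterenol, 8.42, 7.19 and 8.44 FPKM with lidocaine and 12.95, 16.6 and 14.2 FPKM in control, so no library of these drugs reached the controls. Cx3cl1, the ligand of Cx3cr1, fell with all 6 drugs (-0.36 with lidocaine, -0.34 with isoproterenol, -0.49 with ivabradine). Ccl2, the ligand of Ccr2, fell with isoproterenol (-0.85, adjusted p = 0.01) and changed by -0.26 to 0.05 with the others, none of which passed.

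Csf1r and Cx3cr1, the receptors for growth factor and for the membrane-bound chemokine, had the smallest p of all members over the 7 groups. Csf1r (Entrez 12978) stood at 10.01, 9.27 and 7.62 FPKM with isoproterenol, 15.1, 15.9 and 17.9 FPKM with amiodarone, and 13.6, 12.8 and 16.3 FPKM with metoprolol. Its values were 10.5, 13.1 and 11.7 FPKM with propranolol, 14.6, 11.4 and 17.6 FPKM with lidocaine, 12.96, 11.5 and 13.5 FPKM with ivabradine, and 17.2, 20.8 and 21.1 FPKM in control. The libraries with isoproterenol, metoprolol, propranolol and ivabradine lay below all controls, while lidocaine and amiodarone overlapped them. It fell with isoproterenol at log2 -1.06 ± 0.13 (adjusted p = 3.2e-05) and with metoprolol, propranolol, lidocaine and ivabradine at log2 -0.44, -0.70, -0.43 and -0.60. With amiodarone its change was -0.26 ± 0.13 (adjusted p = 0.14). Cx3cr1 (Entrez 13051), the fractalkine receptor, had 3.85, 3.44 and 2.79 FPKM with isoproterenol, 5.82, 6.7 and 7.21 FPKM with amiodarone, and 4.81, 5.41 and 5 FPKM with metoprolol. In the remaining groups Cx3cr1 was 5.77, 5.76 and 5.74 FPKM with propranolol, 4.5, 3.94 and 5.51 FPKM with lidocaine, 4.2, 4.55 and 3.66 FPKM with ivabradine, and 7.15, 7.77 and 7.34 FPKM in control. It fell with isoproterenol at log2 -0.96 ± 0.10 (adjusted p = 1.1e-05), with ivabradine at log2 -0.72, with lidocaine at log2 -0.58, with metoprolol at log2 -0.47 and with propranolol at log2 -0.32. Amiodarone libraries overlapped the controls (-0.16 ± 0.10, adjusted p = 0.25).

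The C1q genes, whose 3 chains form the recognition unit of the classical complement pathway, fell with every drug. C1qa (Entrez 12259) was measured at 29.5, 35.1 and 25.9 FPKM with isoproterenol, 46.3, 46.96 and 66.8 FPKM with amiodarone, and 39.2, 39.04 and 50.9 FPKM with metoprolol. Further C1qa values were 35.3, 53.7 and 48.8 FPKM with propranolol, 50.4, 37.2 and 57.2 FPKM with lidocaine, 53.04, 40.1 and 41.97 FPKM with ivabradine, and 66.4, 122 and 78.5 FPKM in control. It fell at log2 -1.49 ± 0.21 with isoproterenol (adjusted p = 8.8e-05) and at log2 -0.70, -0.99, -0.91, -0.84 and -0.93 with amiodarone, metoprolol, propranolol, lidocaine and ivabradine. Of the drug libraries, amiodarone 3 alone overlapped the controls. C1qc stood at 24.7, 28.9 and 20.8 FPKM with isoproterenol, 34.3, 39.4 and 45.3 FPKM with amiodarone, and 28.9, 29.1 and 41.97 FPKM with metoprolol. The other C1qc values were 26.5, 40.7 and 36.4 FPKM with propranolol, 37.8, 29.95 and 45.2 FPKM with lidocaine, 40.6, 32.9 and 33.9 FPKM with ivabradine, and 47.2, 80.9 and 60.6 FPKM in control, so that every drug library was below every control. It fell at log2 -1.29 ± 0.20 with isoproterenol (adjusted p = 0.00016) and at log2 -0.88 to -0.63 with the others. C1qb averaged 23.96 ± 6.52 FPKM with isoproterenol, 39.8 ± 4.96 with amiodarone, 35.5 ± 9.75 with metoprolol, 36.1 ± 7.51 with propranolol, 36.3 ± 6.25 with lidocaine, 38.3 ± 5.83 with ivabradine and 65.3 ± 21.99 in control. Its changes were -1.39 ± 0.23 with isoproterenol and -0.84 to -0.66 with the others, all past the threshold.

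Promoter sequence of the members was looked at as a description. The member Spi1 encodes PU.1, a factor that binds purine-rich DNA. RefSeq promoter windows (build GRCm38.p6, not the build of the deposited values) were at hand for 26 members, 32 windows, and the 250 bases before each start were searched on both strands for a shorter and a longer purine-rich word, which can overlap each other. The shorter word, GAGGAA, was in 16 of the 32 member windows (50%) and in 23.3% of all 32851 windows of that length held by RefSeq for this genome. The longer word was in 10 of the member windows (31.2%) and in 7.7% of all windows, and its letters are AGGAAGT. Windows below run 5′ to 3′ on the strand of the gene, end at the base before the start, and carry matches to either word in capitals. They show C1qb (chr4:136886201-136886450, minus strand), C1qc (chr4:136892915-136893164, minus strand) and Fcgr1 (chr3:96293970-96294219, minus strand), which fell with all 6 drugs, and the resident gene Mrc1 (chr2:14229164-14229413, plus strand), which passed with isoproterenol and no other drug.
C1qb: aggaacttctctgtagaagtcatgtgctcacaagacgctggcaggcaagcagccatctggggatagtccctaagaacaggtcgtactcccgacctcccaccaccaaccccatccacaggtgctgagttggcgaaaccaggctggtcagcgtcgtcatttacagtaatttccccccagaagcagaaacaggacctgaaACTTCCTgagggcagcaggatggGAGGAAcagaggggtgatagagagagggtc
C1qc: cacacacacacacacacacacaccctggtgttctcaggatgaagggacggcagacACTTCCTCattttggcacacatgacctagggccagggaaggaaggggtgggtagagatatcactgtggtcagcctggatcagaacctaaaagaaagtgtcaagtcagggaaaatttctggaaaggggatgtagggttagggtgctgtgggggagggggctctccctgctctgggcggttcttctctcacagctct
Fcgr1: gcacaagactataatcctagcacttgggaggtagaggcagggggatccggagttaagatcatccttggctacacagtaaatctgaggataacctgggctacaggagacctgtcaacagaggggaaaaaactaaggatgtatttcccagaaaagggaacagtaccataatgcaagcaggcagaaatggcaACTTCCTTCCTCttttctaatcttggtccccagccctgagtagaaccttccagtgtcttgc
Mrc1: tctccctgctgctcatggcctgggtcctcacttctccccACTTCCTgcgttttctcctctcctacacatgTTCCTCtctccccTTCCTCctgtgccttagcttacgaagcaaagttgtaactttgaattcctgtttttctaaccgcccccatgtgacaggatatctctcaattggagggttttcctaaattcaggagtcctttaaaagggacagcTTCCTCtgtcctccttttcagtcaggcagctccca
All 4 windows hold both words, Mrc1 with 3 matches to the shorter, and in C1qc and Fcgr1 the words share bases. The 4 are not typical, as most member windows do not hold both. Laptm5, which fell with all 6 drugs, holds the shorter word alone. The resident genes Timd4 and Cd163 hold neither word, nor do Ccr2, Mpeg1, Cybb and Lgmn. Cx3cr1, Ms4a7 and Fcer1g, which fell with 5 or 6 drugs, hold neither word in these windows. A match is a run of letters and was not tested as a binding site. The members were picked as macrophage genes, with earlier results of these data known. Whether the words go with the changes under the drugs was not tested.

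Fc receptors and their adaptors, through which macrophages take up antibody-coated targets, fell with all drugs for Fcgr1 and Fcer1g. Fcgr1 (Entrez 14129), the high-affinity IgG receptor CD64, stood at 1.07, 1.07 and 0.67 FPKM with isoproterenol, 1.37, 1.31 and 1.92 FPKM with amiodarone, and 1.15, 0.99 and 1.53 FPKM with metoprolol. It had 0.95, 1.41 and 1.21 FPKM with propranolol, 1.16, 0.89 and 1.55 FPKM with lidocaine, 0.85, 0.83 and 1.13 FPKM with ivabradine, and 1.97, 3.06 and 2.19 FPKM in control. Every drug library lay below every control, and Fcgr1 fell at log2 -0.81 ± 0.14 with isoproterenol (adjusted p = 0.0005) and -0.81 ± 0.14 with ivabradine (adjusted p = 0.00076), with -0.63 to -0.42 for the other drugs. Fcer1g, the shared signalling γ chain, had 12.96, 14.6 and 8.8 FPKM with isoproterenol, 15.8, 18.5 and 19.3 FPKM with amiodarone, and 13.3, 11.3 and 21.6 FPKM with metoprolol. For Fcer1g the rest were 11.8, 18.1 and 14.4 FPKM with propranolol, 16.1, 10.98 and 18.1 FPKM with lidocaine, 18.6, 19.1 and 15.6 FPKM with ivabradine, and 24.3, 42.7 and 30.2 FPKM in control. These groups did not overlap the controls either, and Fcer1g fell at log2 -1.34 ± 0.23 with isoproterenol (adjusted p = 0.00044) and -1.06 to -0.79 with the others.

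The other receptors of this class passed with fewer drugs. Fcgr3, a low-affinity IgG receptor, fell with isoproterenol (-1.28 ± 0.31; 6.14 ± 2.14 FPKM with isoproterenol against 16.9 ± 7.21 FPKM in control) and propranolol (-1.05). Tyrobp, the adaptor DAP12, fell with isoproterenol (-1.46 ± 0.34; 17.2 ± 6.44 FPKM with isoproterenol against 49.4 ± 19.1 FPKM in control), propranolol (-0.98) and lidocaine (-1.09). Cd14, the lipopolysaccharide co-receptor, fell with isoproterenol (-1.22 ± 0.27; 1.68 ± 0.305 FPKM with isoproterenol against 5.54 ± 2.39 FPKM in control) and propranolol (-0.88) and changed by -0.19 with metoprolol. Trem2, a lipid-sensing receptor that signals through Tyrobp, had 5.27 ± 2.77 FPKM with isoproterenol and 14.2 ± 9.72 in control, a change of -1.12 ± 0.51 that did not pass (adjusted p = 0.093). Within the controls Trem2 ran from 3.89 to 23.2 FPKM.

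With isoproterenol, the largest fold changes of the members were among genes of the lysosome and of killing. Laptm5, a lysosomal membrane protein of leukocytes, stood at 14.3, 15.7 and 9.85 FPKM with isoproterenol, 18.6, 19.8 and 24.5 FPKM with amiodarone, and 18.95, 14.4 and 30.7 FPKM with metoprolol. It was at 15.5, 18.4 and 19.1 FPKM with propranolol, 22.8, 14.6 and 21.96 FPKM with lidocaine, 20.8, 21.4 and 20.1 FPKM with ivabradine, and 23.4, 41.5 and 41.5 FPKM in control. The highest amiodarone and metoprolol libraries overlapped the controls. Laptm5 fell with all 6 drugs, at log2 -1.33 ± 0.24 with isoproterenol (adjusted p = 0.00055) and -0.93 to -0.70 with the others. Cybb, the catalytic subunit of the phagocyte NADPH oxidase, had 1.89, 2.09 and 0.89 FPKM with isoproterenol, 2.18, 2.94 and 3.49 FPKM with amiodarone, and 2.79, 1.8 and 6.43 FPKM with metoprolol. Values for Cybb elsewhere were 1.87, 2.71 and 2.74 FPKM with propranolol, 3.47, 1.35 and 3.07 FPKM with lidocaine, 2.71, 3.71 and 2.72 FPKM with ivabradine, and 3.41, 5.2 and 8.63 FPKM in control, with overlap in amiodarone, metoprolol, lidocaine and ivabradine. Cybb fell with isoproterenol (-1.32 ± 0.32), propranolol (-0.91) and lidocaine (-0.87).

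Ctss, the protease cathepsin S, averaged 13.6 ± 7.48 FPKM with isoproterenol and 64.2 ± 35.6 in control and fell at log2 -2.13 ± 0.59 (adjusted p = 0.0099), the largest change of any member with this drug, while changes of -1.52 to -0.73 with the other drugs did not pass. Lyz2, lysozyme M, averaged 70.99 ± 39.4 FPKM with isoproterenol and 258 ± 157 in control and fell at log2 -1.81 ± 0.60 (adjusted p = 0.027). Reads of Lyz2 can be shared with its near-identical copy Lyz1, which ran from 2.48 FPKM in isoproterenol 3 to 38.7 FPKM in control 3. The pore-forming Mpeg1 averaged 4.05 ± 2.12 FPKM with isoproterenol and 13.7 ± 7.25 in control and fell with isoproterenol (-1.52 ± 0.44, adjusted p = 0.013). Cd68, a glycoprotein of lysosome membranes, had 10.1 ± 3.76 FPKM with isoproterenol and 26.5 ± 15.7 in control and did not pass (-1.15 ± 0.48, adjusted p = 0.069). Lgmn, the protease legumain, changed least of the class, with 56.2 ± 2.18 FPKM with isoproterenol, 60.1 ± 3 with propranolol and 76.2 ± 14.8 in control, and fell with these drugs at log2 -0.41 ± 0.10 and -0.32 ± 0.10.

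Among genes of the leukocyte surface and cytoskeleton, Aif1 and Ms4a7 had the smallest p over the 7 groups. Aif1 encodes IBA1, an actin-bundling protein used to stain macrophages, and stood at 1.05, 1.94 and 0.99 FPKM with isoproterenol, 2.31, 3.2 and 3.48 FPKM with amiodarone, and 1.23, 2.23 and 2.26 FPKM with metoprolol. For Aif1 the others were 2.38, 3.83 and 2.54 FPKM with propranolol, 1.57, 2.39 and 2.81 FPKM with lidocaine, 2.85, 1.99 and 2.74 FPKM with ivabradine, and 5.18, 4.97 and 3.84 FPKM in control, and every drug library lay below every control. Aif1 fell at log2 -1.30 ± 0.19 with isoproterenol (adjusted p = 0.00012) and -0.98 ± 0.19 with metoprolol (adjusted p = 0.0019), with -0.81 to -0.54 for propranolol, lidocaine and ivabradine, and the change of -0.51 with amiodarone did not pass (adjusted p = 0.057). Ms4a7, a membrane protein of the MS4A family, had 2.82, 3.7 and 2.08 FPKM with isoproterenol, 4.2, 4.7 and 4.33 FPKM with amiodarone, and 2.85, 3.1 and 4.62 FPKM with metoprolol. The further Ms4a7 values were 2.22, 3.63 and 2.42 FPKM with propranolol, 3.94, 1.96 and 3.33 FPKM with lidocaine, 3.64, 3.73 and 3.68 FPKM with ivabradine, and 4.47, 9.75 and 9.89 FPKM in control. It fell with all 6 drugs, at log2 -1.18 with isoproterenol and -1.22 with propranolol, and control 1 was the lowest control, overlapped by amiodarone and metoprolol.

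Of the remaining members of that class, Adgre1, which encodes F4/80, averaged 2.62 ± 0.535 FPKM with isoproterenol and 7.71 ± 2.51 in control, fell at log2 -1.23 ± 0.22 with isoproterenol and passed with all other drugs but amiodarone. Ptprc, the leukocyte phosphatase CD45, fell at log2 -0.96 ± 0.16 with isoproterenol (0.823 ± 0.132 FPKM with isoproterenol against 2.57 ± 0.592 FPKM in control) and at log2 -0.71 to -0.54 with the others. The tetraspanin Cd53 averaged 1.46 ± 0.47 FPKM with isoproterenol and 4.26 ± 1.35 in control and fell with isoproterenol (-1.08), propranolol (-0.80) and lidocaine (-0.84). Itgam and Itgb2, the chains of the complement receptor integrin CD11b/CD18, fell with isoproterenol (-1.22 ± 0.34 for Itgam, -1.37 ± 0.43 for Itgb2). With the other drugs Itgam changed by -0.89 to -0.50 and Itgb2 at log2 -0.86 to -0.47, none of which passed, and neither gene passed for isoproterenol against the anti-arrhythmic groups (adjusted p = 0.14 and 0.17). Itgam averaged 1.19 ± 0.54 FPKM with isoproterenol and 4.29 ± 1.96 in control, and Itgb2 2.62 ± 1.1 FPKM with isoproterenol and 9.04 ± 5.16 in control. Cd86, a co-stimulatory ligand for T cells, was below the filter at 0.423 ± 0.0862 FPKM with isoproterenol and 0.767 ± 0.127 in control, and without a filter it fell with isoproterenol at log2 -0.31 ± 0.07 (adjusted p = 0.0041) and against the mean of the 5 anti-arrhythmic groups (-0.20, adjusted p = 0.018).

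Spi1, the transcription factor PU.1 that myeloid cells depend on, stood at 3.88, 6.12 and 3.61 FPKM with isoproterenol, 4.93, 6.54 and 7.72 FPKM with amiodarone, and 5.32, 4.19 and 9.77 FPKM with metoprolol. Spi1 had 5.54, 6.37 and 6.91 FPKM with propranolol, 6.62, 4.91 and 6.66 FPKM with lidocaine, 6.28, 6.74 and 6.11 FPKM with ivabradine, and 7.11, 15.6 and 11.1 FPKM in control. It fell at log2 -1.12 ± 0.25 with isoproterenol (adjusted p = 0.0025) and at log2 -0.75 to -0.69 with amiodarone, metoprolol, propranolol and lidocaine. With ivabradine all libraries were below the controls, but the change of -0.67 did not pass (adjusted p = 0.051). Of 14 other myeloid transcription factors 12 were tested, and 6 fell with isoproterenol, 1 with amiodarone, 4 with metoprolol, 5 with propranolol, 6 with lidocaine and 4 with ivabradine, while 1 rose with lidocaine and 1 with ivabradine. Of all genes tested, 25.8% fell with isoproterenol, 20.6% with amiodarone and 19.1% to 26.6% with the rest, and 6.98% to 10.6% rose. Irf5, an interferon regulatory factor, fell with all drugs but propranolol (-0.83 with isoproterenol, adjusted p = 0.00079), and Maf with all but amiodarone (-0.56 with isoproterenol, adjusted p = 0.0099).

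Pf4, a chemokine of platelets that resident macrophages also make, had 14.2, 14.4 and 13.3 FPKM with isoproterenol, 15.6, 16.8 and 21.9 FPKM with amiodarone, and 16, 14.3 and 21.3 FPKM with metoprolol. Pf4 stood at 15.3, 18.8 and 19.4 FPKM with propranolol, 17.5, 20.5 and 16.7 FPKM with lidocaine, 23.4, 20.1 and 17.6 FPKM with ivabradine, and 20.7, 34.5 and 21.7 FPKM in control. Libraries with isoproterenol, propranolol and lidocaine lay below all controls. It fell with isoproterenol (-0.80 ± 0.17, adjusted p = 0.002), metoprolol (-0.53) and propranolol (-0.47). Platelet markers fell too, also with amiodarone, lidocaine and ivabradine, where Pf4 did not pass. Of 10 listed, 6 were tested, and 5 fell with isoproterenol, 3 with amiodarone, 4 with metoprolol, 6 with propranolol, 5 with lidocaine and 5 with ivabradine. Among all genes tested the shares that fell were 25.8% with isoproterenol and 19.1% to 26.6% with the other drugs. The platelet markers summed to 9.13 to 10.5 FPKM with isoproterenol and 15.2 to 26.4 FPKM in control, and their part in the result for Pf4 was not tested.

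Markers of other blood cells were counted beside the macrophage genes. The shares of all genes tested that fell were 25.8% with isoproterenol and 19.1% to 26.6% with the other drugs. The shares that rose were 6.98% to 10.6%, and some of the counts below lie near these shares. The 13 genes of MHC class II and dendritic cells summed to 21.8 to 34.2 FPKM with isoproterenol and 65.9 to 116 FPKM in control, and 7 of 9 tested fell with isoproterenol, 6 with amiodarone, 5 with metoprolol, 1 with propranolol, 2 with lidocaine and 2 with ivabradine. Clec9a, a receptor of dendritic cells, fell at log2 -0.27 with isoproterenol (adjusted p = 0.044) and the class II chain H2-Aa at log2 -1.72 (adjusted p = 0.0058). Cd209a of this list was at 0 in 9 libraries. The 14 neutrophil genes summed to 9.28 to 13.99 FPKM with isoproterenol, 80.3 to 89.7 FPKM with amiodarone and 26.1 to 164 FPKM in control. Of the 10 tested, 7 fell with isoproterenol, 2 with metoprolol, 4 with propranolol, 3 with lidocaine and 1 with ivabradine. With amiodarone 1 fell and 3 rose, including the granule protein Ltf (0.94, adjusted p = 0.0027). The 10 T cell genes summed to 2.11 to 2.58 FPKM with isoproterenol and 3.93 to 6.9 FPKM in control, and 0 of them passed the filter. Neutrophil Elane was at 0 in 15 libraries and Ly6g in 8, and Cd3e of T cells in 1. Of 3 B cell genes tested 1 fell with isoproterenol and 0 with the other drugs, of 6 mast cell genes 1 fell with propranolol, 1 rose with metoprolol and 2 rose with ivabradine, and of 7 erythroid genes 0 fell or rose with any drug. The part of these cells in the changes of genes that all leukocytes share, such as Ptprc, Cd53, Laptm5 and Itgb2, was not tested.

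Further macrophage lists are read against the shares of all genes that fell, 25.8% with isoproterenol and 19.1% to 26.6% with the other drugs. The shares that rose were 8.38% with isoproterenol and 6.98% to 10.6% with the others. Of 11 tested phagocytic and scavenger receptors (14 listed), 6 fell with isoproterenol, 2 with propranolol, 1 each with lidocaine and ivabradine and 0 with amiodarone and metoprolol. Fcrls fell with isoproterenol (-0.90, adjusted p = 0.00087), and the fatty acid receptor Cd36, which endothelium and muscle also express, rose with metoprolol (0.22, adjusted p = 0.018). Of 14 tested genes of lipid-handling and repair macrophages, 6 fell with isoproterenol and 1 to 7 with the others, 1 rose with lidocaine and 1 with ivabradine, with the lipid carrier Apoe at -0.73 with isoproterenol (adjusted p = 0.011). Of 7 tested inflammatory genes (16 listed), 2 fell with isoproterenol and 1 to 3 with each other drug. The adaptor Myd88 fell with all 6 drugs (-0.26 with isoproterenol, -0.48 with ivabradine) and the receptor Tlr2 with 4, at log2 -0.58 with isoproterenol. Of 11 tested further genes found in resident macrophages (15 listed), most of them also made by other cells, 4 fell with isoproterenol and 2 to 4 with each other drug, while 1 rose with lidocaine and 2 with ivabradine. Among those that fell was Igf1 (-0.58 with isoproterenol, adjusted p = 0.0033). Among 12 blood endothelial genes 4 fell with isoproterenol, and of 12 cardiomyocyte genes 0 fell and 5 rose. Of 12 fibroblast genes 6 fell with isoproterenol, 6 with propranolol, 4 with lidocaine and 1 with each other drug, and their sum was 2214 to 2412 FPKM with isoproterenol and 2084 to 3749 FPKM in control. Of 8 skeletal muscle genes tested, 6 fell and 2 rose with isoproterenol, and 6 fell with lidocaine, 5 with ivabradine, 4 with propranolol, 2 with metoprolol and 0 with amiodarone. The part of these cells in the macrophage results was not tested.

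Libraries of the same group differed widely in these genes. The pooled within-group SD was 0.10 on the log2 scale for the median gene tested. All members but Cd86 (0.08) were above that, with 0.13 in Cx3cr1, 0.14 in Lgmn and 0.18 in Csf1r, and 0.60 to 0.85 in Itgb2, Mpeg1, Cd68, Trem2, Ctss and Lyz2. Isoproterenol 3 had the lowest of 3 values in 31 of 35 members, amiodarone 1 in 31, metoprolol 2 in 29, lidocaine 2 in 29, propranolol 1 in 28 and control 1 in 31, and metoprolol 3 the highest in 31. Spp1, which encodes osteopontin, a secreted product of repair macrophages, was picked after its values were seen because its low libraries were often the same. It stood at 45.9, 31.1 and 0.96 FPKM with isoproterenol, 10.3, 37.2 and 11.7 FPKM with amiodarone and 47.4, 1.92 and 198 FPKM with metoprolol. Its other values were 22.2, 16.8 and 37.6 FPKM with propranolol, 120.2, 3.62 and 9.76 FPKM with lidocaine, 70.4, 106 and 67.3 FPKM with ivabradine and 2.39, 221 and 262 FPKM in control. In propranolol its lowest library was 2, where most members were lowest in 1, and in amiodarone its highest was 2, where most members were highest in 3. The library of a group lowest in Spp1 was also lowest in Lyve1 and Itgam in 7 of 7 groups, in Lyz2, Ctss and Cd68 in 6, in Cx3cr1, Csf1r and C1qa in 5 and in Aif1 in 2. Because Spp1 was picked for such agreement, these counts describe the choice and are no test. The same count over all genes was not made. Gpnmb, another gene of lipid-laden macrophages, ran from 0.79 FPKM in isoproterenol 3 to 106 FPKM in control 3, and the collagen gene Col1a1 stood at 374 FPKM in control 1 and 937 and 833 FPKM in controls 2 and 3. The part of these library differences in the drug comparisons was not tested.

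**Figure D3:**
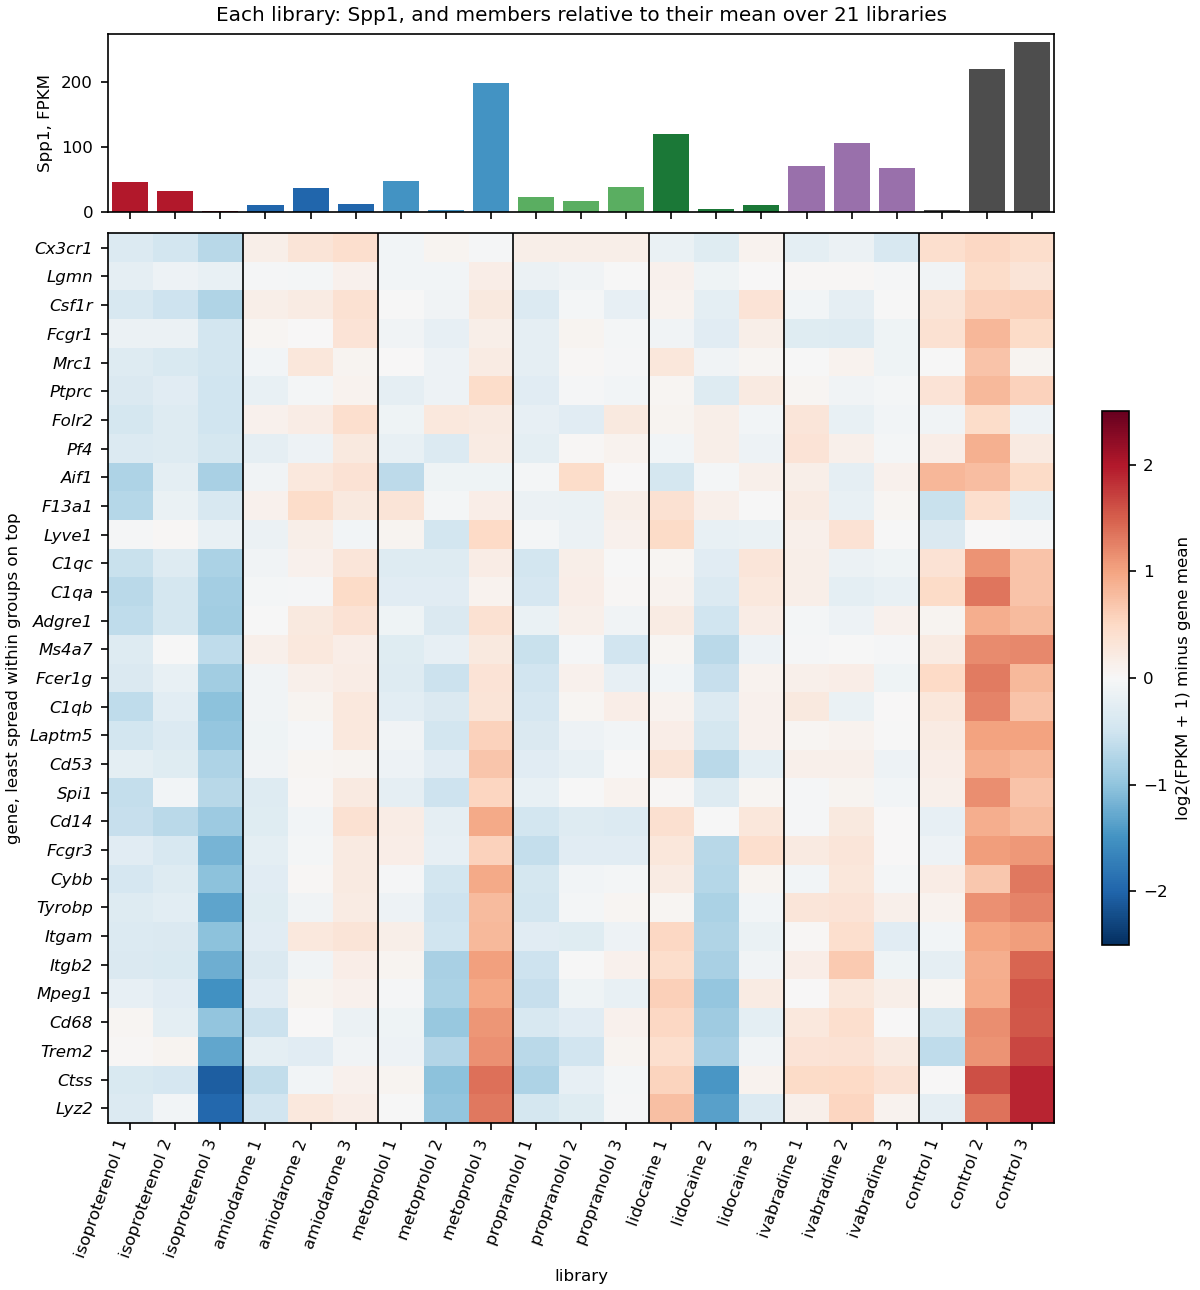
Top, FPKM of Spp1 in each library. Bottom, log2(FPKM + 1) minus the gene's mean over 21 libraries for the 31 members tested, least spread within groups on top, drug groups left and control right. The more variable genes are low where Spp1 is low in isoproterenol 3, metoprolol 2, lidocaine 2 and control 1, while Cx3cr1 and Csf1r differ more between groups than within them.

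Isoproterenol was also set against the mean of the 5 anti-arrhythmic groups, a comparison in which the control libraries enter the estimate of the spread but not the difference. Here 12 of 31 members fell (13.3% of all genes tested) and 0 rose (9.51%). Among resident genes, 3 of 4 tested fell: F13a1 (-0.54 ± 0.15, adjusted p = 0.015), Folr2 (-0.48 ± 0.13, adjusted p = 0.0099) and Mrc1 (-0.41 ± 0.12, adjusted p = 0.015), with Lyve1 at -0.10 ± 0.15. The others were Csf1r (-0.57 ± 0.10, adjusted p = 0.00066), Cx3cr1 (-0.51 ± 0.08, adjusted p = 0.0002), the 3 C1q chains (-0.63 to -0.52), Cd14 (-0.76), Adgre1 (-0.66), Aif1 (-0.60) and Laptm5 (-0.56). All 3 isoproterenol libraries lay below all 15 anti-arrhythmic libraries in Folr2, Mrc1, Csf1r, C1qa and Cd14, 5 of 31 members, where 5.34% of all genes tested did. Fcgr1 and Ms4a7, which fell with all 6 drugs, did not pass here (-0.42 to 0.04 and -0.59 to 0.17, 95% intervals of the difference).

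Of those 12, Csf1r and Cx3cr1 passed under every alternative setting. They were the 2 that passed without isoproterenol 3 and without the 4 libraries highest in markers of other tissues, and 7 passed without isoproterenol 1. With a covariate of 4 Y-linked genes, 4 passed (Csf1r, Cx3cr1, Cd14 and Adgre1). The sum of those genes reached 1 FPKM in 0 of 3 isoproterenol libraries and in all 3 libraries with amiodarone and with propranolol. Over all genes, 1649 were lower in the main fit, 838 without isoproterenol 3, 715 without the 4 libraries and 1057 with the covariate. The counts of 2 and 4 members may thus lie near the shares of all genes in these settings.

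**Figure D4:**
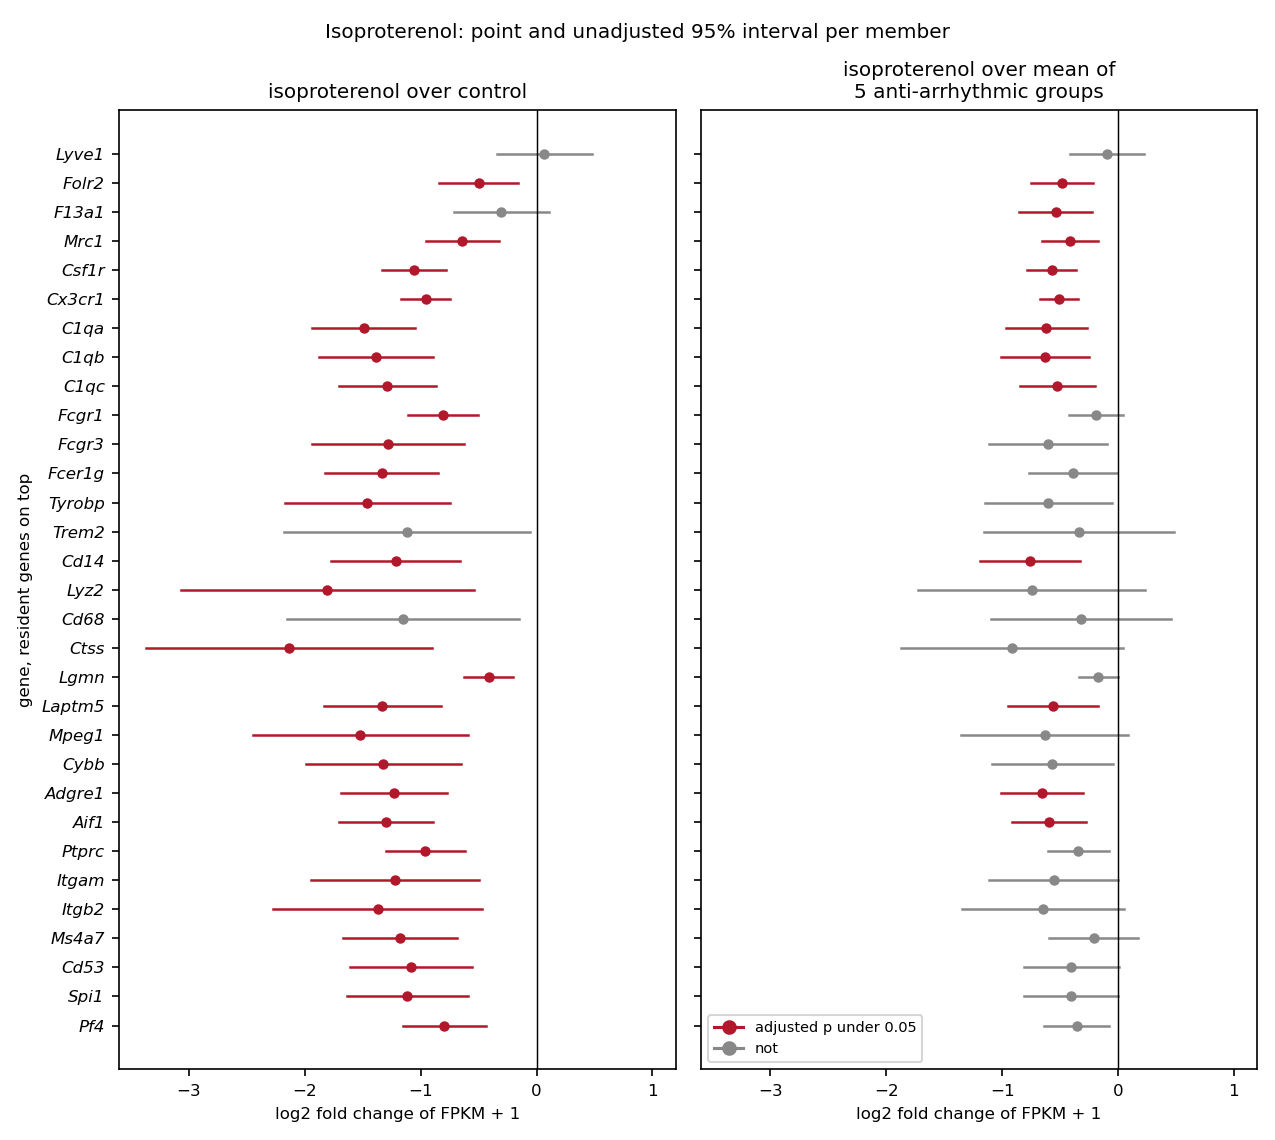
Log2 fold change of FPKM + 1 with unadjusted 95% interval for the 31 members tested, isoproterenol over control (left) and over the mean of the 5 anti-arrhythmic groups (right). Red marks adjusted p under 0.05, which 27 members reach on the left and 12 on the right, and the interval of Ctss on the left is -3.37 to -0.90.

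The anti-arrhythmic drugs were compared with each other as well. An F test over the 5 groups passed for 1 member, Cx3cr1 (adjusted p = 0.032; 1.06% of all genes tested passed), which averaged 6.58 ± 0.703 FPKM with amiodarone, 5.07 ± 0.307 with metoprolol, 5.76 ± 0.0153 with propranolol, 4.65 ± 0.796 with lidocaine and 4.14 ± 0.448 with ivabradine. That call was lost without amiodarone 2 or 3, any propranolol library, lidocaine 1, or ivabradine 1 or 3. Over all 7 groups, 19 of 31 members passed the F test (39.9% of all genes tested), 1 of them resident (Mrc1, adjusted p = 0.043), and without the 4 libraries 6 passed.

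Metoprolol and propranolol are both aryloxypropanolamine β-blockers, and metoprolol is selective for the cardiac receptor subtype where propranolol is not. At doses that are not given, 0 of 31 members differed between them in limma (0.0241% of all genes tested were lower and 0.0241% higher), and at an unadjusted p under 0.05 there were Cd14 and Aif1. The share of all genes under that unadjusted threshold was not counted, so Cd14 and Aif1 are not read as differences. The difference, metoprolol minus propranolol, was 0.68 ± 0.27 in Cd14 (4.74 ± 2.44 FPKM with metoprolol against 2.38 ± 0.165 FPKM with propranolol, adjusted p = 0.4) and -0.43 ± 0.19 in Aif1 (1.91 ± 0.586 FPKM with metoprolol against 2.92 ± 0.795 FPKM with propranolol, adjusted p = 0.46). The 95% interval was -0.02 to 0.53 for Csf1r, -0.53 to 0.37 for C1qa, -0.21 to 0.42 for Mrc1 and -0.75 to 1.72 for Ctss. Intervals this wide do not show that both drugs act alike on these genes.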

How the data were processed

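RNA of the heart apex was sequenced on a BGISEQ-500 after oligo dT selection or rRNA depletion; the labels' protocols do not say which. The authors deposited FPKM values for 18762 genes. The submitters' processing notes name HISAT, Bowtie2 2.2.5 and mm9, and the counter, annotation and filters are not given in the sources used here. Read counts are unknown, so no interval for counting error is given.

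Values were analysed on the log2(FPKM + 1) scale with limma 3.58.1 in R 4.3.3, with 1 mean per group over all 21 libraries, empirical Bayes moderation with trend and Benjamini-Hochberg adjustment over 12433 genes (1 FPKM reached in 3 or more libraries). Of the 35 members 31 passed, 0 of them only through the control libraries. The fit was tested on simulated data. Members and gene lists were chosen with earlier results of these data known. All members are named. Values per library are given for resident genes, Ccr2 and the 2 genes of smallest F test p in each other class; other lists name up to 4 genes of smallest p, and Spp1, Gpnmb and Col1a1 were chosen after their values were seen. Alternatives changed the pseudocount (0.1), the filter (none, or 5 FPKM), the scaling (median of ratios), the trend, robust moderation, the libraries fitted (compared groups alone, each library left out, the 4 highest in Mylpf, Myl7, Sftpc or Alb left out) or added the library number as a block. A covariate of Y-linked genes was chosen after the data were seen. Promoter windows came from RefSeq (GRCm38.p6).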

Additional observations from a re-analysis of the deposited data

Results flagged for a closer look

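The change with isoproterenol differed from that with the 5 anti-arrhythmic drugs in 12 members, by the limma test of the difference itself (adjusted p under 0.05). The log2 differences, isoproterenol minus the mean of the 5 groups, were -0.4833 in Folr2, -0.5373 in F13a1, -0.4132 in Mrc1, -0.5718 in Csf1r, -0.5073 in Cx3cr1, -0.6176 in C1qa, -0.6284 in C1qb, -0.5233 in C1qc, -0.7634 in Cd14, -0.5625 in Laptm5, -0.6571 in Adgre1 and -0.5951 in Aif1. Of these, Csf1r and Cx3cr1 passed in every alternative run.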

How the results depend on the processing

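No result called in either setting changed direction in an alternative run, while 37 differences of single members that did not pass changed sign in at least 1 (Mrc1 with amiodarone to 0.07 and Folr2 with propranolol to 0.01 without control 2, Lyve1 with isoproterenol to -0.05 without control 1); of the tests of single members 8819 kept their side of the threshold, 515 lost a call and 145 gained one. Members that fell, over single libraries left out, numbered 21 to 30 with isoproterenol, 0 to 22 with amiodarone, 7 to 20 with metoprolol, 8 to 27 with propranolol, 6 to 26 with lidocaine and 4 to 20 with ivabradine, 2 to 15 for isoproterenol against the anti-arrhythmic groups, and 13 to 24 and 0 to 1 for the F tests of 7 and 5 groups; members that rose numbered 0 to 1. Without the 4 libraries the counts were 13, 0, 9, 4, 9 and 8 in the order of drugs above, then 2, 6 and 0. Amiodarone gave 5 with no filter, 3 after rescaling and 5 with robust moderation. Metoprolol gave 9 with the compared groups alone, propranolol 12 after rescaling, and isoproterenol against the anti-arrhythmic groups 4 with the Y-linked covariate. The F test of 5 groups gave 0 with no filter and with the replicate block. Library numbers did not pair libraries (63 residual correlations, -0.54 to 0.29, median -0.03); with the replicate block 27, 10, 14, 19, 16 and 13 members fell in the order of drugs, 12 for isoproterenol against the anti-arrhythmic groups, 0 between metoprolol and propranolol, and 15 passed the F test of 7 groups. Over all genes, those lower and higher were 3212 and 1042 with isoproterenol, 2555 and 1053 with amiodarone, 2731 and 1179 with metoprolol, 2464 and 868 with propranolol, 3303 and 1312 with lidocaine and 2374 and 984 with ivabradine. After rescaling they were 1485 and 2145, 1032 and 1863, 1162 and 2016, 1104 and 1805, 1584 and 2349, and 1213 and 1812 (12% lower and 17.3% higher with isoproterenol). Without the 4 libraries they were 1396 and 544 with isoproterenol, 740 and 377 with amiodarone, 1011 and 344 with propranolol, 1552 lower with ivabradine, 715 and 669 against the anti-arrhythmic groups (1649 and 1182 with all libraries), 2152 in the F test of 7 groups (4962) and 11 in that of 5 (132; 76 with no filter). Ivabradine gave 1179 and 437 with the compared groups alone, and the Y-linked covariate gave 1057 and 644 against the anti-arrhythmic groups. Metoprolol against propranolol, 3 and 3, gave 0 and 0 with no filter and without the 4 libraries, 1 and 5 with the block, 0 and 1 with the Y-linked covariate, and 0 lower with the groups alone. Causes were not tested. Absolute depth is unknown and limits what can be said of Ccr2, Timd4, Cd163 and Cd86.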
